A study of Mus musculus with 48 samples.

Results

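Mouse embryonic fibroblasts (MEFs) that overexpressed *Mettl14* during the first days of reprogramming were compared with MEFs that received an empty vector, to ask whether *Mettl14* had any steady effect on RNA levels early in the process. The members are the libraries labelled *Mettl14* OE (overexpression) and Control OE on days 3, 6 and 9, 9 against 9, which is 18 of the 48 libraries of the series. The *Mettl14* OE groups received OSKM (Oct4, Sox2, Klf4 and c-Myc) plus *Mettl14*, and the Control OE groups received OSKM plus the empty vector, with 3 libraries per group and day. All of them came from reprogrammable MEFs that carry *Rosa26*-M2rtTA, the *Col1a1*-4F2A cassette that expresses OSKM in the presence of doxycycline (Dox), and an *Oct4*-GFP reporter, and all were kept in 1 µg/ml Dox, so OSKM was on in both arms. The libraries were made from poly(A) RNA of whole cultures, and whether the 3 libraries of a group came from separate cultures is not stated in the sources used here, so the p-values measure the spread between these libraries, which may be technical. In bulk RNA, fewer cells of a type and less RNA per cell cannot be told apart.

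METTL14 is the RNA-binding partner of the methyltransferase METTL3 in the complex that writes N6-methyladenosine (m6A) on messenger RNA. Readers of the YTH family recognize the mark and alter the splicing, translation or decay of the transcript, and ALKBH5 and FTO can remove it. Fibroblasts under OSKM first lose mesenchymal genes and gain epithelial ones, and some of them enter senescence and secrete cytokines and chemokines, the senescence-associated secretory phenotype (SASP), before the endogenous pluripotency genes come on.

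Levels are FPKM, which are fragments scaled to the length of the transcript and the size of the library. The file gives no counts and states no depth. From the smallest values of genes with a single annotated transcript the depth was estimated at 15.2 to 29.1 M fragments per library (median 24.2 M). FPKM summed to 226000 to 406000 over the *Mettl14* OE libraries and 228000 to 434000 over the Control OE libraries. The deposited table joins day 3 with MEFs, and days 6 and 9 with each other, so arms were compared within a day and levels were not compared between day 3 and the later days. Markers of fibroblasts, the starting cell type, were read in these libraries, which cannot check the cells from before OSKM. All 12 fibroblast markers were at 1 FPKM or more in every library of both arms on days 6 and 9, and 8 of 12 on day 3. So were all 10 epithelial markers on days 6 and 9, and 4 of 10 on day 3. Of 11 pluripotency markers 2 were at that level in every library, and both are among the OSKM factors that the cassette expresses.

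*Mettl14* was high in every library meant to overexpress it. It stood at 376, 420 and 411 FPKM in *Mettl14* OE on day 3, against 5.54, 4.56 and 7.47 FPKM in Control OE. On day 6 it stood at 414, 464 and 476 FPKM in *Mettl14* OE and at 5.94, 5.25 and 5.87 FPKM in Control OE. On day 9 the values were 363, 423 and 342 FPKM in *Mettl14* OE and 5.59, 5.18 and 5.18 FPKM in Control OE. The arms were far apart on each day, and the log2 fold changes of 5.90, 6.08 and 5.89 on days 3, 6 and 9 showed no difference between days (interaction adjusted p = 0.969). Reads from the transgene and from the endogenous gene cannot be told apart here.

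Each gene was then tested for 1 common effect of *Mettl14* OE over the 3 days, with day as a block, by limma on log2(FPKM + 1). Of 11974 genes that reached 1 FPKM in 3 or more of the 18 libraries, only *Mettl14* itself passed a Benjamini-Hochberg adjusted p of 0.05 with a change of at least 1.5-fold in FPKM + 1 (1 gene higher, 0.00835% of those tested, and 0 genes lower, 0%). Its log2 fold change was 5.96 (SE 0.0693, 95% interval 5.81 to 6.10, adjusted p = 4.66e-22). An exact two-sided permutation of the arms within days gave p = 0.00025, the smallest value that 8000 arrangements allow. Without the fold threshold the count was the same, 1 higher and 0 lower. The next smallest adjusted p was 0.248, for *Eno3*.

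Intervals were narrow for most genes. The median SE of a log2 fold change was 0.0595. For 11780 genes (98.4%) the whole 95% interval lay inside a 1.5-fold change of FPKM + 1 in either direction. Here and below, such intervals do not limit the fold change of FPKM itself for genes near or under 1 FPKM. On day 6, for example, *Mr1* had means of 0.23 FPKM in *Mettl14* OE and 0.54 FPKM in Control OE. Its log2 fold change of FPKM + 1 on that day was -0.33. For the remaining 194 genes, *Mettl14* among them, the interval reached past 1.5-fold. Estimates of 1.5-fold or more were found for 64 genes. Of these, 55 were entries shorter than 200 nucleotides, a class that makes up 0.852% of the genes tested, and their median SE was 1.03 against 0.0594 for all other genes.

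**Figure D1:**
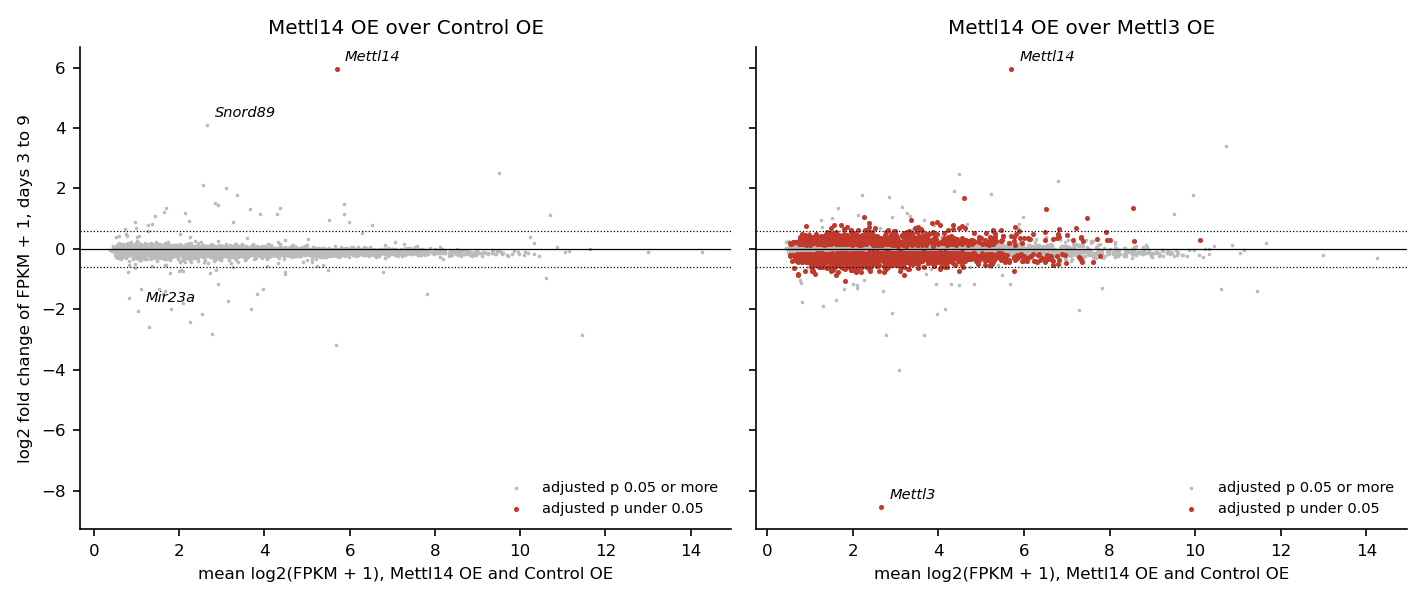
Log2 fold change of FPKM + 1 over days 3, 6 and 9 (vertical axis) against the mean log2(FPKM + 1) of the *Mettl14* OE and Control OE libraries (horizontal axis), 1 point per gene, with genes at an adjusted p under 0.05 in red and dotted lines at 1.5-fold. *Mettl14* is the single red point of *Mettl14* OE over Control OE, while *Mettl14* OE over *Mettl3* OE, drawn for the genes tested in both comparisons, has 2635 red points.

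The same layout did yield calls in comparisons with *Mettl3* OE, the overexpressed genes themselves among them. *Mettl14* OE against *Mettl3* OE on the same days, again 9 against 9 libraries and with the same *Mettl14* OE libraries, gave 44 genes higher (0.367% of 11987 tested) and 64 lower (0.534%), with a median SE of 0.0628. At the adjusted p alone there were 740 higher (6.17%) and 1947 lower (16.2%). *Mettl3* OE against Control OE, which shares its control libraries with the main comparison and was added after the values were seen, gave 39 higher (0.324% of 12039 tested) and 91 lower (0.756%), and 1450 higher (12.0%) and 1580 lower (13.1%) at the adjusted p alone.

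Within days, the arms differed by little more than the libraries of a group. Over all tested genes and per degree of freedom, the summed squares between arms were 1.24 times those between libraries of a group, and 1.09 times without *Mettl14*. Those of the arm-by-day interaction were 0.940 times as large.

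A small downward offset of *Mettl14* OE was present on days 6 and 9 and not on day 3, and it moved with the scaling. The median log2 fold change over all tested genes was -0.05, with 5% of genes below -0.18 and 5% above 0.05, and 9893 genes (82.6%) were below 0. By day the median was 0.01 on day 3, -0.11 on day 6 and -0.06 on day 9. On day 9 the median FPKM of tested genes was 7.39, 8.03 and 6.81 in *Mettl14* OE and 7.74, 7.645 and 8.04 in Control OE. Replicate 2 of *Mettl14* OE thus lay within the Control OE libraries. After median-ratio scaling of the libraries the median log2 fold change was -0.002, with a shift of 0.10 on day 6. The genes with an unadjusted p under 0.05 split accordingly, at 31 higher (0.259%) and 1245 lower (10.4%) in the values as deposited. There were 302 higher and 368 lower of 11800 tested after median-ratio scaling. After quantile normalization there were 368 higher and 280 lower of 11974. None but *Mettl14* passed the adjusted p under either scaling (next smallest adjusted p 0.244 and 0.0659).

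In the values as deposited, signs that held on all 3 days were mostly below 0. Such signs were not counted after scaling. The mean of *Mettl14* OE was above that of Control OE on all 3 days for 293 genes (2.45%) and below it on all 3 days for 3917 genes (32.7%), and 7764 genes had no single sign over the days. The libraries of the arms stood apart on each of the 3 days for 1 gene with *Mettl14* OE higher (0.00835%), *Mettl14*, and for 8 genes with *Mettl14* OE lower (0.0668%). The 8 genes were *Atp6v1a*, *B4galt6*, *Copa*, *Higd1a*, *Mkln1*, *Nbeal1*, *Rnf11* and *Tax1bp1*, and apart from *Rnf11* they were named after their values were seen. Their effects were small, between -0.26 for *Higd1a* and -0.10 for *B4galt6* on the log2 scale, and their adjusted p was 0.431.

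The genes nearest to the threshold on the lower side were of mixed kinds. Among them *Lox* and *Cnn1* are markers of matrix-producing and contractile fibroblasts. *Eno3*, the muscle form of the glycolytic enzyme enolase, stood at 12.1, 14.2 and 12.5 FPKM in *Mettl14* OE on day 3 and at 14.8, 13.8 and 16.5 FPKM in Control OE. On day 6 it stood at 49.9, 54.3 and 49.6 FPKM against 64.3, 59.1 and 63.7 FPKM in Control OE, and on day 9 at 18.8, 19.3 and 17.3 FPKM against 20.6, 22.5 and 22.8 FPKM in Control OE. The arms overlapped on day 3 and not on days 6 and 9, and the log2 fold change over the 3 days was -0.24 (SE 0.0452). After scaling it was -0.18 by median ratio and -0.16 by quantiles.

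*Cnfn*, which encodes cornifelin, a protein of the cornified envelope of skin, had the widest difference among the 10 genes of smallest p on the lower side. It stood at 10.8, 11.5 and 13.3 FPKM in *Mettl14* OE and at 16.6, 17.0 and 17.7 FPKM in Control OE on day 3, and at 6.34, 5.69 and 6.18 FPKM in *Mettl14* OE and 8.65, 8.44 and 9.87 FPKM in Control OE on day 6. On day 9 the arms overlapped, at 5.75, 5.28 and 2.44 FPKM in *Mettl14* OE and 5.31, 6.31 and 6.83 FPKM in Control OE. Its log2 fold change was -0.48 (SE 0.0956, 95% interval -0.68 to -0.28, adjusted p = 0.343).

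*Lox*, the enzyme that crosslinks collagen, and *Cnn1*, the smooth muscle protein calponin, followed with log2 fold changes of -0.24 (SE 0.0521) and -0.33 (SE 0.0732) and an adjusted p of 0.431 each. *Nog*, which encodes the BMP antagonist noggin, was at -0.28 (SE 0.0629), and *Mr1*, an antigen-presenting molecule, at -0.26 (SE 0.0592), with the same adjusted p. *Ptgs2os2*, *1110065P20Rik*, *Zswim3* and *Rnf11* completed the 10 genes of smallest p on this side, between -0.36 and -0.16. *Lox* and *Cnn1* were higher in *Mettl14* OE than in *Mettl3* OE, by 0.59 (adjusted p = 0.00255) and 0.44 (adjusted p = 0.0307). Both were lower in *Mettl3* OE than in Control OE, at -0.83 (adjusted p = 0.000133) for *Lox* and -0.77 (adjusted p = 0.00102) for *Cnn1*.

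The 10 genes of smallest p on the higher side included *Rps27*, which is described with day 3, and several genes with small differences in the values as deposited. *Ccnl2*, a cyclin linked to pre-mRNA splicing, stood at 10.2, 9.94 and 10.9 FPKM in *Mettl14* OE against 8.99, 9.51 and 8.57 FPKM in Control OE on day 3. On day 6 the values were 21.1, 18.1 and 18.4 FPKM against 19.6, 16.4 and 15.2 FPKM in Control OE, and on day 9 they were 24.1, 24.7 and 23.0 FPKM against 20.7, 22.3 and 21.4 FPKM in Control OE. The arms did not overlap on days 3 and 9, and the log2 fold change was 0.17 (SE 0.0461, adjusted p = 0.431). *Leng8* was at 0.18 (SE 0.0558), *Cchcr1* at 0.14 (SE 0.0448), *Rbak* at 0.14 and *1700008J07Rik* at 0.15, with adjusted p of 0.431. After median-ratio scaling *Ccnl2* was at 0.22, *Leng8* at 0.23 and *Cchcr1* at 0.19, beside -0.18 for *Lox*. *Nr2f1*, an orphan nuclear receptor, was at 0.42 on day 3 but at 0.11 on day 6 and -0.004 on day 9.

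**Figure D2:**
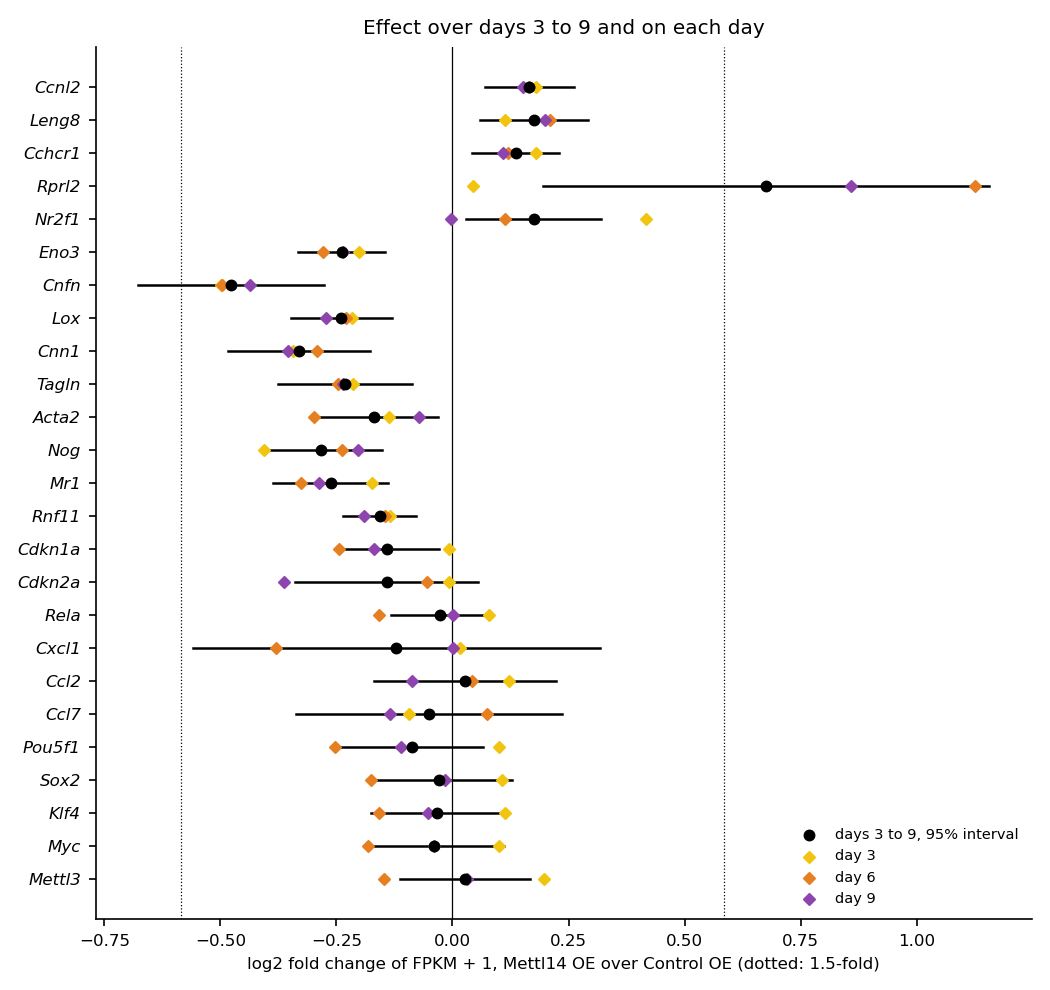
Log2 fold change of *Mettl14* OE over Control OE for named genes, with the effect over days 3 to 9 and its 95% interval in black and the effect of each day as a coloured diamond. None of these genes passed the adjusted p, and for most the interval lies inside the dotted lines at 1.5-fold, with *Cnfn* and *Rprl2* reaching past them.

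The other members of the m6A machinery stayed within narrow bounds. *Mettl3*, the catalytic subunit, stood at 5.11, 5.27 and 4.85 FPKM in *Mettl14* OE and at 4.67, 3.33 and 5.06 FPKM in Control OE on day 3. On day 6 it stood at 5.17, 6.05 and 5.91 FPKM in *Mettl14* OE and at 6.79, 6.43 and 6.05 FPKM in Control OE, and on day 9 at 5.05, 6.25 and 4.87 FPKM in *Mettl14* OE and 5.34, 5.12 and 5.23 FPKM in Control OE. The arms overlapped on days 3 and 9, and the log2 fold change over the 3 days was 0.03 (95% interval -0.11 to 0.17). Of 11 tested genes of the writer complex and related RNA methyltransferases, 1 passed the test, *Mettl14*, and for the other 10 the interval lay inside 1.5-fold. *1110037F02Rik*, an older symbol of the writer subunit *Virma*, was at -0.05, and *Mettl5*, which methylates ribosomal RNA, at -0.13. None of 16 tested erasers and readers passed, with log2 fold changes between -0.12 and 0.04 and all 16 intervals inside 1.5-fold.

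The SASP genes that the study follows later in reprogramming showed no separation on these days. *Ccl2*, a chemokine that attracts monocytes, stood at 19.5, 20.6 and 17.4 FPKM in *Mettl14* OE and 17.0, 17.1 and 18.3 FPKM in Control OE on day 3. On day 6 it stood at 16.3, 16.5 and 14.6 FPKM in *Mettl14* OE and 16.1, 15.1 and 14.6 FPKM in Control OE. On day 9 it stood at 38.3, 25.9 and 18.96 FPKM in *Mettl14* OE and 32.3, 23.7 and 29.7 FPKM in Control OE. The arms overlapped on every day, and the 3 *Mettl14* OE libraries of day 9 spread more widely than those of Control OE. Its log2 fold change was 0.03 (95% interval -0.17 to 0.22, exact two-sided permutation p = 0.818).

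*Ccl7*, a related monocyte chemokine, stood on day 9 at 20.6, 16.03 and 9.43 FPKM in *Mettl14* OE and 17.6, 15.8 and 15.3 FPKM in Control OE, and its log2 fold change over the 3 days was -0.05 (95% interval -0.34 to 0.24, exact permutation p = 0.747). *Cxcl1*, which attracts neutrophils, stood on day 9 at 12.0, 6.40 and 3.44 FPKM in *Mettl14* OE and 7.03, 4.999 and 7.88 FPKM in Control OE, with a log2 fold change over the 3 days of -0.12 (95% interval -0.56 to 0.32, exact permutation p = 0.598). In all 3 chemokines the same library of day 9, replicate 1 of *Mettl14* OE, was the highest and replicate 3 the lowest of its group.

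*Il6*, the cytokine interleukin-6, did not reach the level required for the test. It stood at 0.0732, 0.114 and 0.0479 FPKM in *Mettl14* OE and 0.0881, 0.276 and 0.0595 FPKM in Control OE on day 3, at 0.635, 0.530 and 0.700 FPKM against 0.816, 0.726 and 0.641 FPKM in Control OE on day 6, and at 1.19, 0.409 and 0.478 FPKM against 0.557, 0.770 and 0.642 FPKM in Control OE on day 9. The arms overlapped on each day. In the fit without a filter its log2 fold change was -0.06 (95% interval -0.20 to 0.09, exact permutation p = 0.494). *Cxcl2*, another neutrophil chemokine, was listed at 0 or under 0.3 FPKM in 17 of the 18 libraries and reached 1.04 FPKM in *Mettl14* OE replicate 1 of day 9 (exact permutation p = 0.633). For levels this close to 0 the scale log2(FPKM + 1) understates relative changes, so the intervals of *Il6* and *Cxcl2* limit changes in level and not fold changes. These 5 genes were each tested by permutation, and their p-values are given unadjusted.

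**Figure D3:**
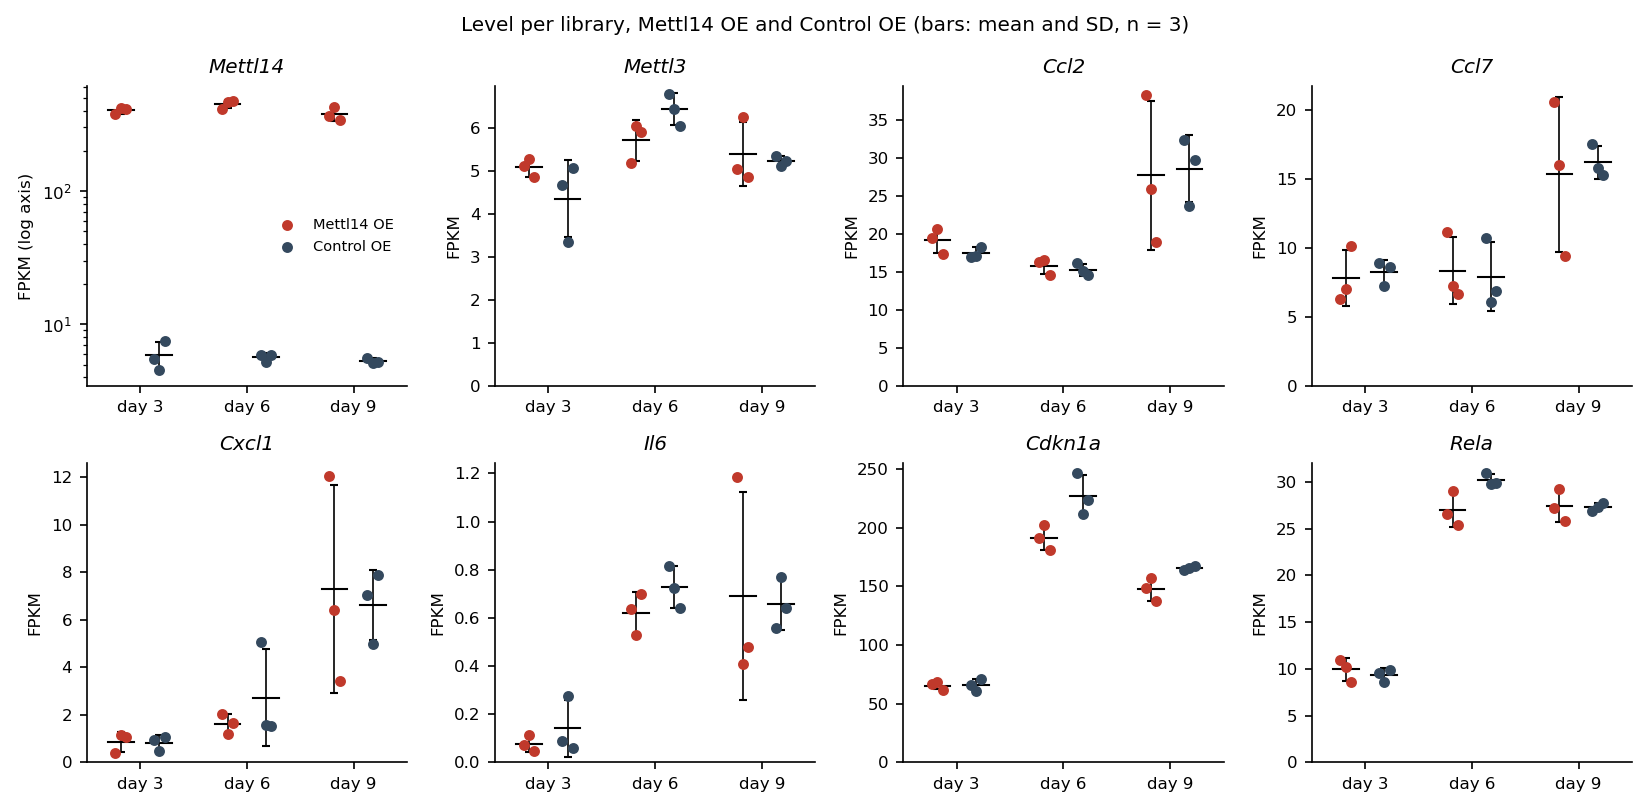
FPKM per library for *Mettl14* (log axis), *Mettl3*, *Ccl2*, *Ccl7*, *Cxcl1*, *Il6*, *Cdkn1a* and *Rela* on days 3, 6 and 9, with *Mettl14* OE left of Control OE and bars for the mean and SD of 3 libraries. *Mettl14* is at 342 to 476 FPKM in *Mettl14* OE and 4.56 to 7.47 FPKM in Control OE, while each of the other genes overlaps between arms on at least 1 day.

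Of 71 SASP factors listed, 52 were tested and none passed. At an unadjusted p under 0.05 there were 0 higher and 6 lower (11.5%, against 10.4% of all genes tested). After median-ratio scaling 2 were lower at that p, beside 368 of 11800 genes tested. The list median was -0.09 as deposited and -0.03 after scaling, beside -0.05 and -0.002 for all genes tested. *Timp1*, an inhibitor of matrix proteases, was at -0.21 (SE 0.0671), *Fgf2*, a fibroblast growth factor, at -0.21 (SE 0.0723) and *Ereg*, an EGF-family ligand, at -0.14 (SE 0.0554), each with an adjusted p of 0.431. Against *Mettl3* OE, 16 of the 52 factors were higher in *Mettl14* OE and 4 lower at the adjusted p alone, beside 6.17% and 16.2% of all genes in that comparison. In *Mettl3* OE against Control OE, 4 of the 51 factors tested were higher and 23 lower, beside 12.0% and 13.1% of all genes.

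Regulators of senescence and of NF-kB showed equally small values. *Cdkn1a*, which encodes the cell cycle inhibitor p21, overlapped between arms on day 3, at 66.4, 68.3 and 61.9 FPKM in *Mettl14* OE and 66.0, 61.3 and 70.7 FPKM in Control OE. On days 6 and 9 the arms did not overlap, at 192, 202 and 181 FPKM in *Mettl14* OE against 246, 212 and 224 FPKM in Control OE and then at 149, 157 and 137 FPKM in *Mettl14* OE against 164, 166 and 167 FPKM in Control OE. Its log2 fold change was -0.14 (SE 0.0536, adjusted p = 0.431), and -0.08 after median-ratio scaling. *Cdkn2a*, which encodes p16 and p19ARF, was at -0.14 (95% interval -0.34 to 0.06), and *Rb1*, the retinoblastoma gene, at -0.12 (SE 0.0424). None of 20 genes of the senescence list passed, and all 20 intervals lay inside 1.5-fold. In the NF-kB list *Rela*, the p65 subunit, was at -0.03 (95% interval -0.13 to 0.08), none of 19 genes passed, and 0 of 19 had an unadjusted p under 0.05. *Rel*, the c-Rel subunit, was above 0 on all 3 days, at 0.07 over the days (adjusted p = 0.554).

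Interferon-stimulated genes and p53 targets gave no call either. Of 22 interferon-stimulated genes tested, 4 had an unadjusted p under 0.05, all lower (18.2%, beside 10.4% of all genes). After median-ratio scaling 2 were lower at that p, beside 368 of 11800 genes tested. *Lgals3bp*, a secreted galectin-binding glycoprotein, was at -0.28 (SE 0.0814, adjusted p = 0.431). Of 32 p53 targets tested, 3 had an unadjusted p under 0.05, all lower (9.38%, beside 10.4% of all genes). *Gadd45a*, a stress-response gene induced by DNA damage, was at -0.23 (SE 0.0707), and the list median was -0.07.

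Cell cycle genes gave no call. The 37 tested genes of G1/S and DNA replication split into 18 above and 19 below 0, where 82.6% of all genes were below 0. Their median was -0.003 with a range of -0.10 to 0.12. At an unadjusted p under 0.05 there were 0 of them, beside 10.4% of all genes lower. After median-ratio scaling the list median was 0.05, and 3 genes were higher at that p, beside 302 of 11800 genes tested. All 37 intervals lay inside 1.5-fold. *Pcna*, the replication clamp, was at -0.10 (adjusted p = 0.599), *Mcm10* at 0.09 (adjusted p = 0.642) and *Chaf1a*, a histone chaperone subunit, at 0.12 (adjusted p = 0.495). The 35 G2/M genes had a median of -0.04 as deposited and 0.02 after scaling. *Pttg1*, which encodes securin, had a log2 fold change of 0.13 at day 3, -0.42 at day 6 and -0.54 at day 9 (-0.28 over these days, adjusted p = 0.431).

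None of the 4 reprogramming factors passed the test, and their reads from the cassette and from the endogenous genes cannot be told apart here. *Pou5f1*, the symbol for Oct4, stood at 80.1, 83.9 and 78.2 FPKM in *Mettl14* OE and 83.2, 65.8 and 77.8 FPKM in Control OE on day 3. On day 9 it stood at 200, 182 and 157 FPKM in *Mettl14* OE and 177, 204 and 200 FPKM in Control OE. The log2 fold changes over the 3 days were -0.09 for *Pou5f1*, -0.03 for *Sox2*, -0.03 for *Klf4* and -0.04 for *Myc*, and all 4 intervals lay inside 1.5-fold. *Klf4*, *Myc* and *Sox2* turned to 0.02 to 0.03 after median-ratio scaling. Each factor was above 0 on day 3 (0.10 to 0.11) and below 0 on day 6 (-0.25 to -0.16). Against *Mettl3* OE all 4 were lower in *Mettl14* OE, between -0.45 for *Pou5f1* (adjusted p = 0.00168) and -0.39 for *Myc* (adjusted p = 0.00254), and all 4 passed the adjusted p as higher in *Mettl3* OE than in Control OE.

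Endogenous pluripotency genes were mostly low on these days. Of 34 listed, 32 are in the file, 19 of these stayed under 1 FPKM in all 18 libraries, and 10 passed the filter, none of which passed the test. *Trim28*, a corepressor that fibroblasts express too, was at 58.5 to 69.5 FPKM in *Mettl14* OE and 68.2 to 85.2 FPKM in Control OE over days 6 and 9 (log2 fold change over the 3 days -0.11). *Klf2*, a Krüppel-like factor, was at 5.07 to 7.13 FPKM in *Mettl14* OE and 5.33 to 9.43 FPKM in Control OE on those days (-0.17). *Nanog* lay at 0.0176 to 0.404 FPKM in *Mettl14* OE and 0 to 0.676 FPKM in Control OE. *Zfp42*, known as Rex1, lay at 0 to 0.0823 FPKM in *Mettl14* OE and 0 to 0.149 FPKM in Control OE. *Fut4*, a fucosyltransferase gene linked to the SSEA1 antigen, lay at 0.0815 to 0.343 FPKM in *Mettl14* OE and 0.135 to 0.494 FPKM in Control OE. *Nanog*, *Zfp42* and *Fut4* were not tested with the filter, and their arms overlapped on each day.

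Genes of the fibroblast state and of the epithelial one gave no call. Of 39 fibroblast and mesenchymal genes, 38 were below 0, beside 82.6% of all genes. The list median was -0.09, beside -0.05 for all genes. None passed, and all 39 intervals lay inside 1.5-fold. After median-ratio scaling the list median was -0.03 and after quantile normalization -0.0005, beside -0.002 and 0.005 for all genes. *Thy1*, a fibroblast surface marker, stood on day 9 at 95.8, 130 and 96.0 FPKM in *Mettl14* OE and 121, 141 and 126 FPKM in Control OE, and its log2 fold change over the 3 days was -0.10 (95% interval -0.33 to 0.13). Of 30 epithelial genes, 29 were below 0, again beside 82.6% of all genes. The list median was -0.13 (-0.09 after median-ratio scaling), none passed, and 28 intervals lay inside 1.5-fold. *Krt18*, a keratin of simple epithelia, was at -0.28 (95% interval -0.58 to 0.01) and *Cldn6*, a tight junction protein, at -0.30 (adjusted p = 0.434). Against *Mettl3* OE, by contrast, 24 of the 39 fibroblast genes passed the adjusted p alone as higher in *Mettl14* OE and 0 as lower, and 1 of the 30 epithelial genes was higher and 19 were lower, beside 6.17% higher and 16.2% lower of all genes. In *Mettl3* OE against Control OE, 0 of these fibroblast genes were higher and 30 lower, and 17 of the epithelial genes were higher and 2 lower, beside 12.0% and 13.1% of all genes.

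Genes of smooth and skeletal muscle had the lowest list median. Of 12 listed, 6 passed the filter, and all 6 were below 0 (82.6% of all genes were). Of these, 5 were lower at an unadjusted p under 0.05, beside 10.4% of all genes. After median-ratio scaling 4 of the 6 were lower at that p, beside 368 of 11800 genes tested. The median was -0.23 as deposited and -0.17 after scaling, beside -0.05 and -0.002 for all genes tested. *Tagln*, an actin-binding protein of contractile cells, stood at 42.7, 39.1 and 33.0 FPKM in *Mettl14* OE and 41.9, 45.8 and 45.4 FPKM in Control OE on day 3, at 107, 92.5 and 94.1 FPKM against 128, 106 and 116 FPKM in Control OE on day 6, and at 34.9, 51.6 and 37.6 FPKM against 46.9, 47.0 and 50.8 FPKM in Control OE on day 9. The arms overlapped on each day, with a log2 fold change of -0.23 (SE 0.0689). *Acta2*, smooth muscle actin, was at -0.17 (SE 0.0661), *Actg2*, an enteric smooth muscle actin, at -0.22 (SE 0.0701) and *Des*, the intermediate filament desmin, at -0.24 (SE 0.0767). All of these had an adjusted p of 0.431, so none was called. In *Mettl3* OE against Control OE all 6 tested muscle genes were lower at the adjusted p alone, beside 13.1% of all genes. The summed level of the 6 smooth muscle markers was 78.0 to 93.1 FPKM in *Mettl14* OE and 94.4 to 104 FPKM in Control OE on day 3, 199 to 239 FPKM in *Mettl14* OE and 232 to 282 FPKM in Control OE on day 6, and 79.4 to 107 FPKM in *Mettl14* OE and 96.0 to 106 FPKM in Control OE on day 9.

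Over the 3 days together, the medians of 3 metabolic lists lay below the median of all genes. All 33 tested genes of glycolysis and hypoxia were below 0, as were 82.6% of all genes, with a median of -0.17 as deposited and -0.10 after median-ratio scaling, and 25 of the 33 intervals lay inside 1.5-fold. *Ldha*, lactate dehydrogenase, was at -0.20 (SE 0.0652), *Pgk1* at -0.20 (SE 0.0781), *Gapdh* at -0.18 (SE 0.0742) and *Adm*, the hypoxia-induced peptide adrenomedullin, at -0.30 (SE 0.115). All 24 cholesterol genes were below 0 too. Of them 9 had an unadjusted p under 0.05 as deposited (37.5%, beside 10.4% of all genes). After scaling 2 were lower at that p, beside 368 of 11800 genes tested. *Msmo1* and *Sqle*, enzymes of the synthesis pathway, were at -0.18 and -0.15. All 30 respiratory chain genes were below 0, with a median of -0.12, and *Cyc1* and *Sdhb* were at -0.18 and -0.20. No gene of these 3 lists passed the adjusted p. The list medians moved up by about the shift of all genes under scaling and stayed below 0 in all 3 groups. As deposited, the medians on days 3, 6 and 9 were 0.014, -0.24 and -0.21 for glycolysis and hypoxia. They were -0.03, -0.23 and -0.08 for cholesterol genes, and -0.02, -0.14 and -0.21 for the respiratory chain. For all genes they were 0.009, -0.11 and -0.06, so the glycolysis list was not below all genes on day 3.

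No gene of the stress, growth-factor response or imprinted lists passed the adjusted p. List medians were -0.10 for the unfolded protein and integrated stress responses, -0.11 for immediate-early, -0.04 for heat shock and -0.09 for imprinted genes. After median-ratio scaling they were -0.04, -0.05, 0.02 and -0.05 in that order. For all genes tested the medians were -0.05 as deposited and -0.002 after scaling. All 30 tested genes of the unfolded protein and integrated stress responses were below 0, 6 of them with an unadjusted p under 0.05 (20%, beside 10.4% of all genes, of which 82.6% were below 0). After median-ratio scaling 4 of the 30 were lower at that p, beside 368 of 11800 genes tested. *Nupr1*, a stress-induced transcriptional regulator, was at -0.23 (SE 0.0701). Of 32 immediate-early genes 29 were below 0, with *Dusp1*, a MAP kinase phosphatase, at -0.28 (SE 0.0981). Of 15 heat shock genes 14 were below 0, with *Hspb1* at -0.22. Of 23 imprinted genes 19 were below 0, with *Sgce* at -0.20 (SE 0.0704). The adjusted p of these genes lay between 0.431 and 0.450.

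**Figure D4:**
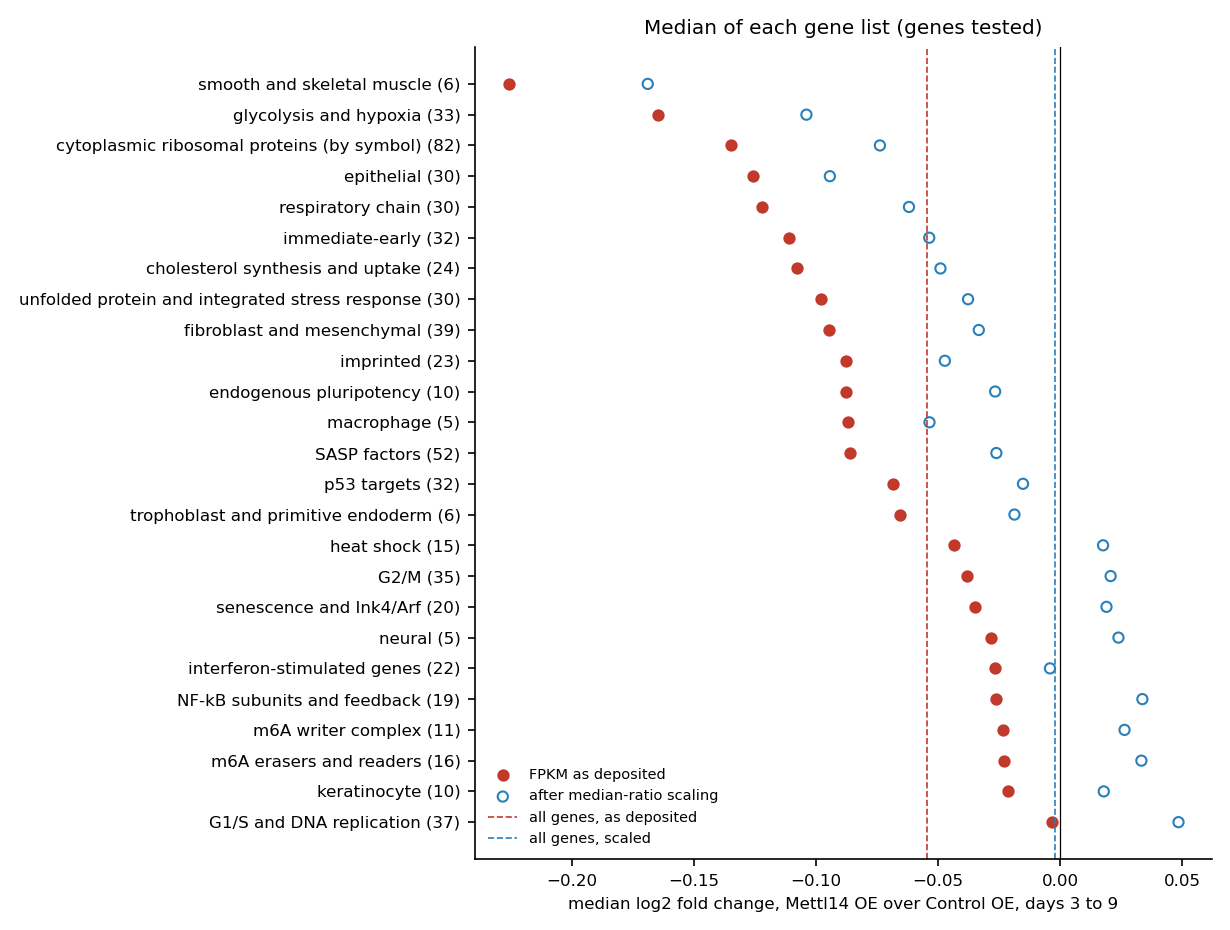
Median log2 fold change of *Mettl14* OE over Control OE for each gene list with at least 5 genes tested (number in brackets), as deposited (filled) and after median-ratio scaling (open), with dashed lines at the medians of all genes tested. Medians as deposited range from -0.23 for muscle genes to -0.003 for G1/S genes, and scaling moves all lists upward.

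Summed markers of 13 cell types, fibroblasts and epithelium included, overlapped between arms in 37 of 39 combinations of cell type and day. Smooth muscle markers on day 3, given with the muscle genes, and primitive endoderm markers on day 9 did not overlap, both with *Mettl14* OE lower. Primitive endoderm markers summed to 3.12 to 3.52 FPKM in *Mettl14* OE and 4.05 to 5.26 FPKM in Control OE on day 9. Macrophage markers summed to 6.23 to 11.6 FPKM in *Mettl14* OE and 11.6 to 12.8 FPKM in Control OE on that day and endothelial markers to 14.1 to 16.3 FPKM in *Mettl14* OE and 16.2 to 17.8 FPKM in Control OE, and both overlapped narrowly, as did endothelial markers on day 3, at 6.29 to 6.77 FPKM in *Mettl14* OE and 6.77 to 7.5 FPKM in Control OE. Summed keratinocyte markers were 247 to 380 FPKM in *Mettl14* OE and 335 to 395 FPKM in Control OE on day 9. Over the 3 days adipocyte markers summed to at most 2.2 FPKM in *Mettl14* OE and 2.63 FPKM in Control OE, and erythroid markers to at most 0.679 FPKM in *Mettl14* OE and 0.591 FPKM in Control OE. No tested gene of the endothelial, macrophage, keratinocyte, neural, muscle, or trophoblast and primitive endoderm lists passed the test, and the part of these cell types in other values was not tested.

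Within single days few further genes were called. Day 3 gave 2 genes higher (0.0167% of 11974), *Mettl14* and *Rps27*, and 2 lower (0.0167%), *Mir23a* and *AF357399*. Days 6 and 9 gave *Mettl14* alone (0.00835% each, with 0 lower, 0%). At an unadjusted p under 0.05 by limma there were 28 genes higher and 934 lower on day 6, and 33 higher and 583 lower on day 9, beside 211 higher and 151 lower on day 3. The effect of *Mettl14* OE differed between days for 3 genes (0.0251%), *Mir23a*, *AF357399* and *Rps27*, and 380 genes had an unadjusted interaction p under 0.05.

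Apart from *Rps27* and *Mettl14*, the entries that set single days apart were small RNAs listed at 0 in every library of 1 arm and above 1 FPKM in every library of the other. Over the 3 days there were 4 such entries, 3 small nucleolar RNAs (snoRNAs) and 1 microRNA, all shorter than 200 nucleotides, and as an exact 0 in a file without counts can be a failed estimate, they are given by their listed values with no fold. Snord89 is a box C/D snoRNA, a class that guides 2′-O-methylation of RNA, and lies within a non-coding host transcript. The sequences are shown because they give the length behind each value. In Snord89 capitals mark the first TGATGA and the last CTGA, letters that match the C and D boxes of this class, as a description of the sequence. In the *Mir23a* hairpin they mark the mature arm and in miR-23a-3p the seed, bases 2 to 8.
Snord89 (GENCODE M21, GRCm38, chr1:39548745-39548854, minus strand): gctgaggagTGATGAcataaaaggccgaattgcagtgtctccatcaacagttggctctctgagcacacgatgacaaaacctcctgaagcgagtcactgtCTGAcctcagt
Mir23a hairpin (RefSeq, GRCm38.p6, chr8:84208518-84208592, plus strand): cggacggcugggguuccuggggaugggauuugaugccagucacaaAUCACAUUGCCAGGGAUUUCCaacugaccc
miR-23a-3p (RefSeq, chr8:84208563-84208583, plus strand): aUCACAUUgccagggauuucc
AF357399 (GENCODE M21, GRCm38, chr7:28351508-28351632, plus strand, in an intron of *Rps16*): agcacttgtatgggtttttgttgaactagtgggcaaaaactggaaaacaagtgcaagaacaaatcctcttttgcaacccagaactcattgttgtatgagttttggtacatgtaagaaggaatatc

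*Mir23a*, a microRNA gene, was listed at 0, 0 and 0 FPKM in *Mettl14* OE and at 84.9, 76.7 and 52.0 FPKM in Control OE on day 3. It was listed at 0 in every library of both arms on days 6 and 9, and in 44 of the 48 libraries of the series. On day 3 it also stood at 75.6 FPKM in replicate 1 of *Mettl3* OE and at 0 in the other replicates of that group. The hairpin is 75 nucleotides long, and poly(A) libraries do not capture mature microRNAs, so these values are not a measure of miR-23a. *AF357399* was listed at 0, 0 and 0 FPKM in *Mettl14* OE and at 33.4, 29.8 and 23.2 FPKM in Control OE on day 3, at 0 on days 6 and 9, and at 27.3, 54.7 and 35.4 FPKM in *Mettl3* OE on day 3. The limma p of these 2 entries (adjusted p = 3.80e-16 each) leans on the days on which every library is at 0 and the spread is nil. An exact permutation test over the 18 libraries gave p = 0.1 for each, the smallest value they can reach because only day 3 holds values above 0. Without a Control OE library of day 3 neither entry reached 1 FPKM in 3 libraries and neither could be tested, and the calls lower on that day were then 1 without replicate 1 and 0 without replicate 2 or 3. Without *Mettl14* OE replicate 1 of day 3 there were 5.

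Snord89 had the largest estimate on the higher side after *Mettl14*. It was listed at 0 in all 6 libraries of day 3. On day 6 it stood at 84.3, 480 and 110 FPKM in *Mettl14* OE and at 0, 0 and 38.4 FPKM in Control OE, and on day 9 at 187, 91.0 and 65.9 FPKM in *Mettl14* OE and at 0, 0 and 0 FPKM in Control OE. The arms did not overlap on days 6 and 9, and the adjusted p over the 3 days was 0.431. It was also listed in *Mettl3* OE, which stood at 136, 0 and 159 FPKM on day 6 and at 164, 97.9 and 191 FPKM on day 9. On day 15 Control OE stood at 446, 437 and 142 FPKM, and *Mettl14* OE at 163, 562 and 0 FPKM. The fourth entry, the snoRNA DQ267102, was also chosen later. It was listed at 0, 0 and 0 FPKM in *Mettl14* OE and at 1570, 789 and 189 FPKM in Control OE on day 6, and at 0 in 26 of the 48 libraries.

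*Rprl2*, an RNase P RNA gene, was the other non-coding RNA among the 10 genes of smallest p on the higher side. It was listed at 0 in all 6 Control OE libraries of days 6 and 9, and stood at 2.68, 0 and 1.82 FPKM on day 6 and 0.584, 1.30 and 0.643 FPKM on day 9 in *Mettl14* OE. On day 3 the arms overlapped, at 2.85, 2.96 and 3.01 FPKM in *Mettl14* OE and 1.93, 4.75 and 2.31 FPKM in Control OE. The adjusted p was 0.431.

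*Rps27*, a ribosomal protein gene, stood at 53.1, 97.5 and 73.3 FPKM in *Mettl14* OE and at 4.11, 1.95 and 3.48 FPKM in Control OE on day 3, a log2 fold change of 4.17 (adjusted p = 1.50e-08). Its near-identical copy *Rps27rt*, chosen later, showed the opposite, at 44.0, 3.48 and 0.122 FPKM in *Mettl14* OE and 95.4, 71.1 and 99.1 FPKM in Control OE. The sum of both copies was 97.1, 101 and 73.4 FPKM in *Mettl14* OE and 99.5, 73.0 and 103 FPKM in Control OE, and the arms overlapped. Reads of such copies can be assigned to either, so the value of *Rps27* alone is uncertain. In the 6 libraries of day 3 by themselves its adjusted p was 0.0976.

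On day 9 the ribosomal protein genes split the *Mettl14* OE libraries. The 82 tested genes of cytoplasmic ribosomal proteins, a group formed by symbol after the values were seen, summed to 32500, 52600 and 29600 FPKM in *Mettl14* OE and 47700, 42800 and 53300 FPKM in Control OE. Replicates 1 and 3 of *Mettl14* OE lay below all Control OE libraries and replicate 2 within them. The 30 respiratory chain genes summed to 1700, 2470 and 1630 FPKM in *Mettl14* OE and 2260, 2090 and 2410 FPKM in Control OE, in the same order of libraries. On day 3 the sums of ribosomal protein genes overlapped, at 18800, 21100 and 18900 FPKM in *Mettl14* OE and 19200, 17400 and 19700 FPKM in Control OE, and so did those on day 6.

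Single genes, chosen later with their values seen, showed the same split. *Rps20*, a protein of the small subunit, stood on day 9 at 523, 1019 and 496 FPKM in *Mettl14* OE and 918, 816 and 1035 FPKM in Control OE. *Rpl34*, of the large subunit, stood at 34.6, 71.2 and 30.4 FPKM in *Mettl14* OE and 61.5, 63.7 and 67.4 FPKM in Control OE. *Ndufs5*, a subunit of respiratory complex I, was the exception in that all 3 libraries were below Control OE, at 9.28, 13.3 and 6.34 FPKM in *Mettl14* OE and 19.1, 19.6 and 25.7 FPKM in Control OE, with a log2 fold change on day 9 of -1.12 (adjusted p = 0.205).

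Without replicate 2 of *Mettl14* OE, the comparison of day 9 called 231 genes lower (1.93% of 11948) in place of 0, and 2 higher, *Mettl14* and Snord89. Of the 82 ribosomal protein genes 43 were among those called lower, as were 9 of the 30 respiratory chain genes. The library left out had the highest sums of both gene groups among the *Mettl14* OE libraries of day 9. Leaving it out therefore lowers these genes by construction, and their counts are a description of the split, not separate support for it. The count was 73 after median-ratio scaling and 25 after quantile normalization of the same libraries, and 180 with all libraries weighted by their fit. Transcript length moved with this difference: on day 9, with all libraries, the median log2 fold change was -0.30 over 286 genes whose longest annotated transcript is under 700 nucleotides, -0.15 over 2210 genes of 700 to 2000 nucleotides and -0.05 over 9035 longer genes. On day 3 the same medians were 0.04, 0.02 and 0.007, and on day 6 they were -0.09, -0.13 and -0.11. The part of transcript length, or of FPKM sums of 316000, 406000 and 289000 in *Mettl14* OE and 388000 to 397000 in Control OE on day 9, was not tested. The comparison over the 3 days called 1 gene with and without that library.

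**Figure D5:**
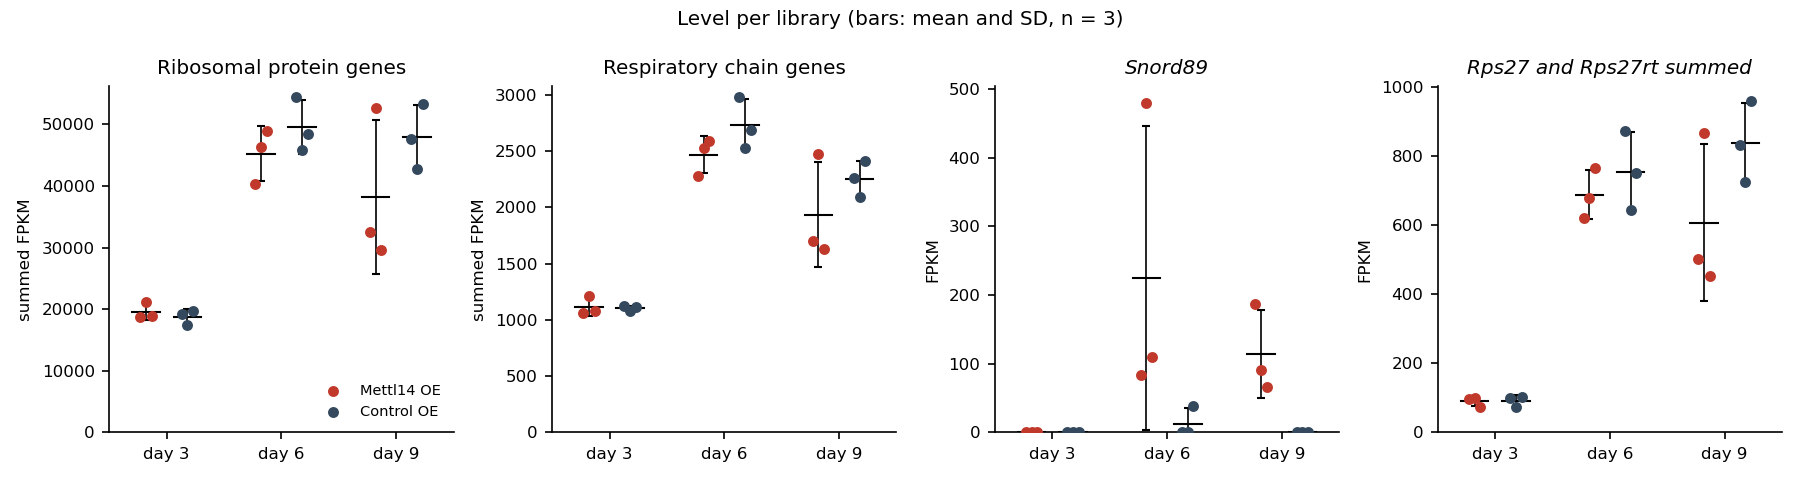
FPKM per library summed over 82 ribosomal protein genes and over 30 respiratory chain genes, of Snord89, and of *Rps27* with its copy *Rps27rt* summed, on days 3, 6 and 9, with *Mettl14* OE left of Control OE and bars for the mean and SD of 3 libraries. On day 9 ribosomal protein genes sum to 32500, 52600 and 29600 FPKM in *Mettl14* OE and 42800 to 53300 FPKM in Control OE.

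The effect of *Mettl14* OE on day 15 was set against its mean effect over days 3, 6 and 9 in 1 fit of 24 libraries, as a difference of differences. The difference, day 15 minus early, was above 0 for 7 genes called (0.0561% of 12477 tested) and below 0 for 5 (0.0401%). The 7 were *Ifi205*, *Cilp*, *Nr4a3*, *S100a7a*, *S100g* and the 2 small RNAs *AF357399* and *Mir23a*, which enter through day 3 and were listed at 0 in both arms on day 15. The 5 were *Mest*, *Tpbpa*, *Nrk*, *Serpinb9e* and *Mettl14* itself, whose own log2 fold change was 5.21 on day 15. The other 4 of these were between -0.12 and -0.004 over the early days and between -1 and -0.74 on day 15. All but *Mettl14*, *Ifi205*, *AF357399* and *Mir23a* were named after their values were seen. *S100g*, which encodes a calcium-binding protein, was at 1.16 on day 15 and -0.12 over the early days, and *Mest*, an imprinted gene, at -1 on day 15 and -0.12 over the early days.

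For the 5 SASP genes the effect on day 15 exceeded the early one by 0.71 to 0.88 on the log2 scale, without passing the adjusted p in this fit. *Il6* differed by 0.80 (95% interval 0.44 to 1.16, adjusted p = 0.08), *Ccl2* by 0.71 (adjusted p = 0.142), *Cxcl2* by 0.75 (adjusted p = 0.120), *Ccl7* by 0.88 (adjusted p = 0.195) and *Cxcl1* by 0.78 (adjusted p = 0.439). *Il6* passed under median-ratio scaling (adjusted p = 0.0451), quantile normalization and library weights, and without replicate 1 of *Mettl14* OE on day 15, or 1 or 2 on day 9. These 5 genes were chosen with the results of day 15 known, and the difference is given as a description.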

How the data were processed

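FPKM values were made and deposited by the authors. Their processing notes name TopHat2 2.1.1, Cufflinks 2.2.1 and the mouse build mm9. The annotation is not given in the sources used here. The table holds 24013 lines for 48 libraries, of which 1 copy was dropped and 27 lines with a date in place of a gene name are never named. limma 3.58.1 in R 4.3.3 was fitted to log2(FPKM + 1) with trended, robust moderation, for genes at 1 FPKM or more in at least 3 libraries of a fit. The test over days 3 to 9 had day and arm as terms over 18 libraries. Effects within days and the interaction came from a fit of 6 groups, and *Mettl14* OE was set against *Mettl3* OE in the same way. Genes were called at a Benjamini-Hochberg adjusted p of 0.05 and 1.5-fold. Single genes were also tested by exact permutation of arms within days. Python 3.11.15, pandas 2.3.3, SciPy 1.17.1 and matplotlib 3.10.9 were used otherwise. The scripts were tested on simulated data.

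Groups were taken from the titles of the libraries. The members and gene lists were chosen with earlier results of these data known. A lncRNA put in the writer list by error was removed after its value was seen. Named genes are those called, the 10 of smallest p in each direction, the 6 of smallest interaction p, genes the study names and up to 4 per list. Others are marked as chosen later. Alternatives were other pseudocounts, filters, scalings, library weights, a replicate block and leaving out each library or day. GENCODE M21 (GRCm38) gave transcript lengths by symbol for 96.3% of tested genes and served for the estimate of depth. Replicate numbers did not pair the libraries, so no block was used. Depth limits genes near 1 FPKM most.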

Additional observations from a re-analysis of the deposited data

Results flagged for a closer look

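The effect of *Mettl14* OE differed between days 3, 6 and 9 for 3 genes by the interaction test of limma. *Mir23a* (interaction adjusted p = 5.87e-14) was listed at 0 in *Mettl14* OE and above 0 in Control OE on day 3, and at 0 in all libraries of both arms on days 6 and 9. *AF357399* (interaction adjusted p = 5.87e-14) showed the same listing. For *Rps27* (interaction adjusted p = 2.92e-06) the log2 fold change was 4.17 on day 3, 0.06 on day 6 and 0.13 on day 9, and the level summed with its copy *Rps27rt* overlapped between arms on day 3.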

How the results depend on the processing

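The comparison over days 3 to 9 gave 1 gene higher and 0 lower in each setting tried but one. The mean of the 3 day effects, in a fit of 6 groups, gave 2 higher and 2 lower, adding *Rps27*, *Mir23a* and *AF357399*. With the replicate block, the counts over days 3 to 9 stayed at 1 and 0, and the block changed the count of no comparison by over 1.5 times other than that of day 15, where 12 were higher. The replicate numbers did not pair the libraries: of 9 pairs, 1 had a correlation over 0.1 (range -0.32 to 0.17). Within day 3, 4 genes were lower at a pseudocount of 0.1 and 1 gene was higher in the libraries of that day alone. Within day 9, 2 were higher in the libraries of that day alone, 6 were higher and 180 lower with library weights, and, in alternatives chosen after seeing the data, without replicate 2 of *Mettl14* OE, 2 were higher and 73 lower with median-ratio scaling and 3 were higher and 25 lower with quantile normalization. The interaction count was 7 without a filter and 10 with library weights. Against *Mettl3* OE the counts were 155 higher and 173 lower at a pseudocount of 0.1, 72 higher at 0.5, 39 lower with median-ratio scaling, 38 lower with quantile normalization, 85 higher and 186 lower without day 3, 22 higher and 19 lower without day 6, and 38 lower without day 9. For day 15 minus the early mean they were 2 higher and 0 lower at a pseudocount of 0.1, 2 lower at 0.5, 8 lower without a filter, 4 higher and 1 lower with the filter at 5 FPKM, 14 higher with median-ratio scaling, 12 higher and 13 lower with quantile normalization, and 90 higher and 61 lower with library weights. The cause was not tested.

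Leaving out 1 library at a time, the counts higher and lower were 1 and 0 over days 3 to 9, 2 to 3 and 0 to 5 within day 3, 1 to 3 and 0 within day 6, 1 to 2 and 0 to 231 within day 9, 30 to 60 and 40 to 83 against *Mettl3* OE, and 5 to 29 and 2 to 11 for day 15, and the interaction count was 1 to 6. Within day 6 it was Control OE replicate 3 whose removal gave 3 higher. Uncalled values near 0 changed sign. With median-ratio scaling, *Ccl7* was at 0.00278, *Rela* at 0.0338, *Sox2* at 0.0331, *Klf4* at 0.0288 and *Myc* at 0.021. With quantile normalization, *Ccl7* was at 0.0129, *Rela* at 0.0497, *Pou5f1* at 0.00756, *Sox2* at 0.0797, *Klf4* at 0.0661, *Myc* at 0.0691 and *Thy1* at 0.00396. With library weights, *Sox2* was at 0.0552, *Klf4* at 0.0234 and *Myc* at 0.0332. Without day 3, *Mettl3* was at -0.0586 and *Ccl2* at -0.0219. Without day 6, *Cxcl1* was at 0.00864, *Rela* at 0.0393, *Sox2* at 0.0453, *Klf4* at 0.0311 and *Myc* at 0.0303. Leaving out single libraries gave -0.0382 to 0.101 for *Ccl2*, -0.118 to 0.0391 for *Ccl7*, -0.242 to 0.0175 for *Cxcl1*, -0.0647 to 0.00663 for *Klf4*, -0.0271 to 0.0559 for *Mettl3*, -0.0677 to 0.00613 for *Myc* and -0.0607 to 0.0186 for *Sox2*.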
